A study of Mus musculus with 2 samples.

Results

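Sox2, Malt1 and Fbn2 are 3 mouse loci at which the study examined chromatin loops and the CTCF sites that anchor them. The question here is which CTCF sites of these loci were occupied in each of 2 cell types, and how each site ranked. One sample was E14 embryonic stem cells (ESC; the E14Tg2A line, named IB10 in the protocol), kept in medium with serum and leukemia inhibitory factor. The other sample was neural precursors (NPC), made from E14 ESC and cultured with basic FGF and EGF. CTCF was immunoprecipitated with the same antibody in both, and no label names a genetic edit or a treatment beyond the culture medium. There was a single library per cell type, so differences have no replicate check, none was tested, and intervals cover counting error only.

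Members were chosen by position on mm9, with the peak centre inside a fixed window: chr3:34300000-35000000 for Sox2, chr18:65200000-66000000 for Malt1 and chr18:57900000-58700000 for Fbn2. These windows held 49 of the 54151 ESC peaks and 48 of the 51421 NPC peaks. Within them the rule places the Sox2 start at 34548927, Malt1 at about 65590000 to 65640000 and Fbn2 at about 58168000 to 58370000, so distances to Malt1 and Fbn2 are approximate. Overlapping peaks of the 2 lists were joined into sites.

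CTCF is a zinc-finger protein whose motif has a direction. In the loop extrusion model cohesin enlarges a loop until it meets CTCF bound in the blocking orientation, so loops tend to join sites whose motifs point towards each other. Sox2 encodes a transcription factor of both pluripotent cells and neural precursors, and in ESC its expression depends on a distal enhancer downstream of the gene. Malt1 encodes the paracaspase of antigen receptor signalling to NF-kB, and Fbn2 encodes fibrillin 2, a protein of extracellular microfibrils. Motif letters and orientation were not analysed here, and the loci are described by the position and rank of their peaks.

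Each peak carries a score that the authors deposited without defining it, so a peak is described by the percentile of its score within its own list, where 50 is the list median. A peak counts as shared if at least 1 bp of it lies within a peak from the other cell type. The files give no read depth, so a site with a peak in only 1 list may lie below the calling limit of the other. NPC peaks were narrower than ESC peaks over the whole lists, with a median width of 433 bp against 573 bp.

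The loci differed in how much of their CTCF binding was common to ESC and NPC. At Sox2 only 4 of 15 ESC peaks (26.7%, exact Clopper-Pearson 95% interval 7.79 to 55.1) had an NPC peak, whereas 74.0% of all ESC peaks did. At Malt1 21 of 26 ESC peaks (80.8%, 60.6 to 93.4) were shared, and at Fbn2 7 of 8 (87.5%, 47.3 to 99.7). Of the 3 loci, only Sox2 had a share below that of the whole ESC list. The intervals treat neighbouring peaks as independent and are not a test.

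Seen from NPC, 4 of 11 peaks at Sox2 (36.4%, 10.9 to 69.2), 22 of 24 at Malt1 (91.7%, 73.0 to 99.0) and 7 of 13 at Fbn2 (53.8%, 25.1 to 80.8) were shared, against 78.6% of all NPC peaks. The shares at Sox2 and Fbn2 were below that of the whole NPC list, and the share at Malt1 was above it. With peaks within 1 kb of each other counted as shared, the Sox2 shares were 6 of 15 ESC peaks (40.0%) and 5 of 11 NPC peaks (45.5%). At Sox2 10 of the 11 NPC peaks were below the list median, where 37.7% of all NPC peaks were unshared. In the upper 50% of scores the shared part at Sox2 was 4 of 7 ESC peaks (57.1%) and 1 of 1 NPC peak (100%) against the whole other list. Over the whole lists, 4.94% of the 27049 ESC peaks at percentile 50.1 and above were unshared. Among the 26098 NPC peaks at percentile 49.2 and above, 5.22% were. The intervals treat neighbouring peaks as independent, and the difference between loci was not tested.

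**Figure D1:**
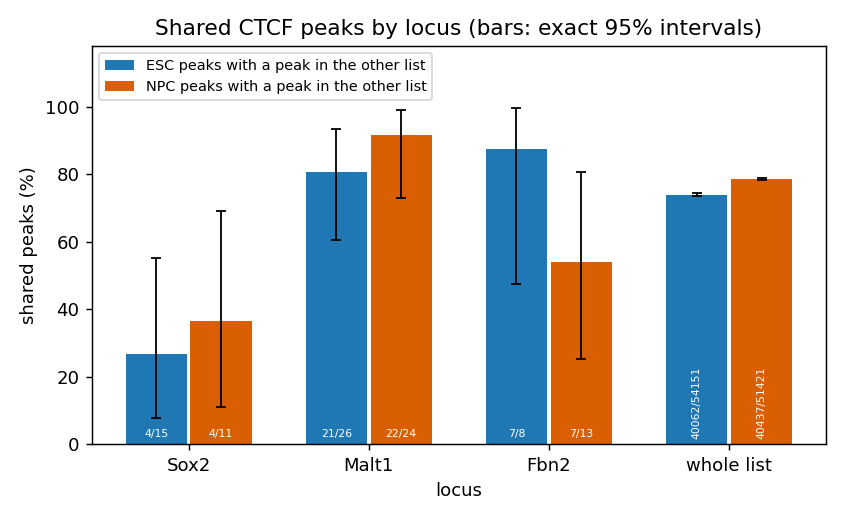
Percentage of ESC peaks (blue) and NPC peaks (orange) in each locus that overlap a peak of the other list, with the whole lists at the right; bars are exact 95% intervals and the fractions give the peaks counted. The Sox2 bars, at 26.7% and 36.4%, stand below the whole lists at 74.0% and 78.6%.

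Sox2 is transcribed towards higher coordinates, so the lower-coordinate side is upstream, and the gene lies within the long noncoding transcript Sox2ot in RefSeq. Upstream there were 9 ESC and 7 NPC peaks, and all 4 shared sites of the locus lay there. Downstream, on the side of the distal enhancer, there were 6 ESC and 4 NPC peaks, and none of them overlapped, against the 74.0% of ESC and 78.6% of NPC peaks shared over the whole lists. The difference between the sides was not tested.

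The site closest to the Sox2 start was present in both cell types and was the highest NPC peak of the locus. In ESC it lay at chr3:34546442-34547148, scored 1139 and stood at percentile 79.2. In NPC it lay at chr3:34546537-34547084, scored 467 and stood at percentile 56.0. The start of the gene was not itself inside a peak in either list: the ESC peak ended 1779 bp before it and the NPC peak 1843 bp before it. This was also the only NPC peak of the window above the NPC list median, against 7 such ESC peaks.

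A group of ESC peaks stood just upstream of that site. The ESC peak at chr3:34537923-34538656, with its centre 10.6 kb before the start, was at percentile 67.2 and had an NPC partner at percentile 47.3. Its neighbour at chr3:34539508-34540251 reached percentile 72.5 in ESC (score 969) and had no NPC peak, although the NPC peak of the adjoining site ended only 868 bp away. A weaker ESC-only peak at percentile 34.7 lay on the other side, 12.8 kb before the start. The highest of these 3 neighbouring ESC peaks was therefore not the shared one.

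The other shared sites lay further upstream and ranked low in NPC. At chr3:34499870-34500572 the ESC peak was at percentile 65.7 (score 819), while the NPC peak at chr3:34500014-34500381 was at percentile 6.88 (score 117), near the bottom of its list. At chr3:34474942-34475582 the ESC percentile was 67.3 and the NPC percentile 25.7. Centres were 23.5 bp and 4 bp apart at these sites, so the position was nearly the same while the rank differed. The ESC peaks were also wider, at 703 bp against 368 bp and 641 bp against 327 bp.

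All 4 paired Sox2 sites ranked lower in NPC (100%, interval 39.8 to 100), compared with 52.9% of the 39595 sites that matched 1-to-1 over the whole lists. The interval includes that 52.9%. The differences, NPC minus ESC, ran from -58.8 to -19.9 percentile points with a median of -32.4, against a median of -1.18 over all pairs. With the window widened by 100 kb on each side, 5 of 7 pairs ranked lower in NPC and the median was -23.1 points. Of the 4 pairs, 2 were at least 25 points lower in NPC, where 16.4% of all pairs were. The largest drop, at the site 48.7 kb upstream, was matched or exceeded by 1.16% of all pairs. That site was picked as the most extreme of the 4, so this share is not a probability.

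The highest ESC peak of the Sox2 locus had no counterpart in NPC. It lay downstream at chr3:34658686-34659368, with its centre 110.1 kb past the start, was 683 bp wide and scored 1297, which is percentile 84.4 of the ESC list. The nearest NPC peak was 7672 bp away, at chr3:34650482-34651014, a weak peak at percentile 31.6 that overlapped no ESC peak. ESC peaks of this rank seldom lacked an NPC peak: among the 8467 ESC peaks that scored at least as high, 0.626% did. At percentile 75 and above Sox2 had 2 ESC peaks, of which this was the unshared one, and 1.11% of all such ESC peaks were unshared.

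Other ESC-only peaks lay on the same downstream side. The peak at chr3:34713189-34713680, 164.5 kb past the start, stood at percentile 51.3, and those 122.2 kb and 128.1 kb past the start stood at 40.5 and 27.8. The ESC peak nearest to the gene on that side, at chr3:34586942-34587436, was at percentile 15.2, and the farthest, 377.6 kb past the start, was at percentile 4.72. Only the first of these 5 was above the ESC list median. Between it and the farthest the ESC list was empty for 213 kb between peak centres, a distance reached by 3.97% of the gaps between neighbouring peaks of the whole list.

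In all, 3 of the 11 ESC-only peaks at Sox2 were above the list median: the highest peak downstream, the upstream peak 9 kb before the start, and the peak 164.5 kb downstream. The other 8 ranged from percentile 0.27 to 40.5, the highest of them at chr3:34670932-34671349. Above the ESC list median Sox2 had 7 peaks, 3 of them unshared. Over the whole list, 4.94% of the 27049 ESC peaks at percentile 50.1 and above were unshared. Below the ESC median 47.1% of all peaks were unshared, so weak ESC-only peaks were frequent over the whole list.

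NPC-only peaks at Sox2 were all weak. There were 7, at percentiles 7.67 to 39.3, and none was above the NPC list median; 37.7% of all NPC peaks below that median were unshared. The highest was at chr3:34395562-34395977, 153.2 kb upstream and 49645 bp from the nearest ESC peak. The lowest, at chr3:34344406-34344698, lay 800 bp from an ESC-only peak. The NPC peak nearest to the gene on the downstream side lay at chr3:34569916-34570383, 21.2 kb past the start, at percentile 16.7. The 4 downstream NPC peaks reached at most percentile 31.6, and the 6 downstream ESC peaks at most 84.4.

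**Figure D2:**
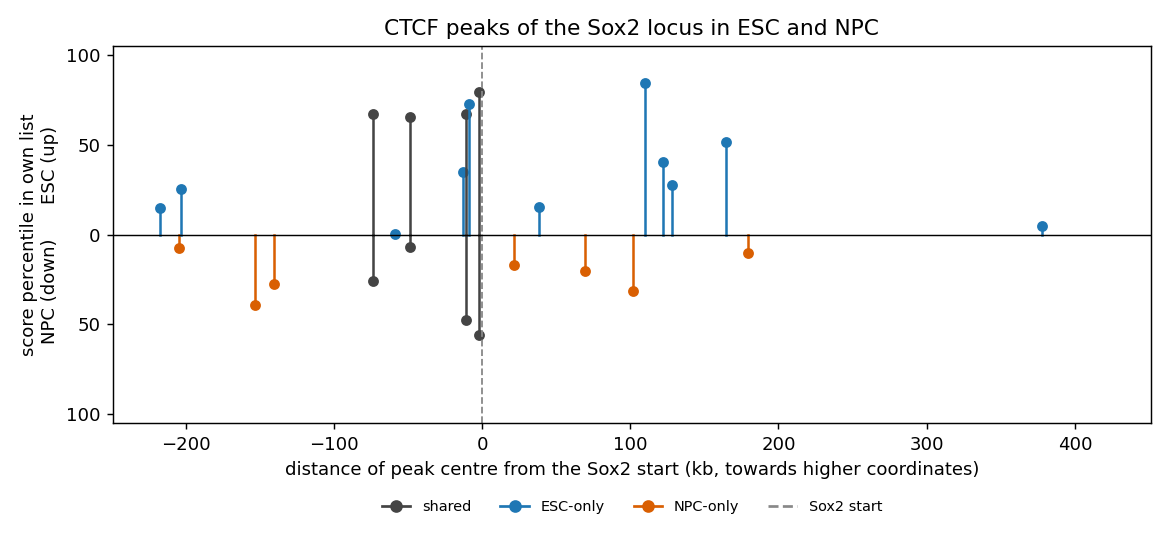
Score percentile of each CTCF peak of the Sox2 locus within its own list, ESC upwards and NPC downwards, against the distance in kb of its centre from the Sox2 start (dashed line); colours mark peaks by class (shared or found in 1 list). The shared peaks all stand left of the start, and the tallest ESC peak, at percentile 84.4, stands 110.1 kb to its right with no NPC peak opposite.

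The Malt1 locus held the most peaks of the 3 loci and shared most of them, with 26 in ESC and 24 in NPC. Neighbouring ESC peaks were a median of 14.7 kb apart, against 14.3 kb at Sox2 and 17.9 kb over the whole list. In RefSeq the nearest protein-coding genes are Alpk2, a kinase gene on the lower-coordinate side, and then Zfp532, Oacyl and Sec11c on the other side. Neither list had a peak inside Malt1 as the rule places it.

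The strongest site of all 3 loci lay just past the higher-coordinate end of Malt1. Its ESC peak at chr18:65649328-65650391 scored 2410 (percentile 98.6), and its NPC peak at chr18:65649492-65650386 scored 2979 (percentile 99.4). The centre was about 9.9 kb from the end of the gene. Only 742 ESC peaks and 305 NPC peaks scored at least as high, the site itself included. The peaks were 1064 bp wide in ESC and 895 bp in NPC, the widest NPC peak of the locus.

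On the lower-coordinate side the gene was separated from its nearest NPC peak by a long interval. The nearest ESC peak there, at chr18:65494977-65495476 and about 94.8 kb from the gene, was at percentile 61.5 (score 733) and had no NPC peak within 34206 bp. It was the only unshared Malt1 peak of either list above its list median. The nearest NPC peak was the next site, at chr18:65460292-65460771, at percentile 71.2, whose ESC partner stood at 77.2. From there to the strongest site the NPC list was empty for 189 kb between centres, which 4.75% of the gaps of the NPC list reached. The longest ESC gap, 155 kb, likewise contained the gene.

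Between 129 and 173 kb below the gene stood 4 shared sites, at percentiles 46.9 to 92.7 in ESC and 70.0 to 94.9 in NPC. The site at chr18:65416886-65417642 was at percentile 92.7 in ESC and 71.8 in NPC. The site at chr18:65431548-65432406, 158.0 kb below the gene, was at 87.6 in ESC and 94.9 in NPC, the third highest NPC peak of the locus. A second peak less than 1 kb from it, at chr18:65432619-65433216, went from 46.9 in ESC to 70.0 in NPC. The order between cell types thus differed from site to site among these 4.

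The second strongest Malt1 site lay towards the far end of the window, 284.2 kb past the gene at chr18:65923788-65924631. It scored 2076 in ESC (percentile 97.3) and 1733 in NPC (percentile 94.96). All 11 Malt1 ESC peaks at percentile 75 and above had an NPC peak. All 6 Malt1 NPC peaks at percentile 75 and above had an ESC peak, where 1.22% of all such NPC peaks were unshared. The strong sites of this locus were therefore present in both lists, as nearly all strong sites were.

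Ranks of the paired Malt1 sites followed each other across the lists. Spearman's rho over the 20 pairs was 0.71, and over all pairs it was 0.62. This is a description of sites within 2 libraries that share a locus. Of the 20 pairs 13 ranked lower in NPC (65.0%, interval 40.8 to 84.6), which includes the 52.9% of all pairs, and the median difference was -8.04 points.

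Most Malt1 pairs, 14 of 20, lay on the higher-coordinate side of the gene. There 10 of 14 pairs were lower in NPC, with a median of -16.2 points, and on the lower-coordinate side 3 of 6, with a median of 0.66. In the whole window 5 of the 20 pairs were at least 25 points lower in NPC, where 16.4% of all pairs were, and these 5 were among the 14 above the gene. The largest drop was at chr18:65982937-65983355, from percentile 48.6 in ESC to 4.02 in NPC. The other 4, picked out after their values were seen, were 24.7, 148.7, 172.6 and 333.4 kb past the gene, and the first of them went from 77.7 to 37.8. The difference between the sides was not tested.

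The largest difference upwards was at the far lower end of the window. At chr18:65314432-65315074 the ESC peak was at percentile 42.9 (score 410), and the NPC peak at chr18:65314448-65314902 was at 78.8 (score 962). It was the only Malt1 pair at least 25 points higher in NPC, as 11.9% of all pairs were. A difference of that size upwards was reached by 5.67% of all pairs, but this site was picked as the highest of 20 pairs.

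One wide ESC peak of the Malt1 locus covered 2 NPC peaks. The ESC peak at chr18:65947861-65949207 was 1347 bp wide, the widest of the 3 loci, and stood at percentile 92.5. The NPC list had separate peaks at chr18:65947884-65948364 and chr18:65948647-65948933, at percentiles 49.2 and 47.8. This site was left out of the pairs because it does not match 1-to-1.

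The remaining unshared peaks at Malt1 were weak. Besides the ESC-only peak below the gene there were 4, at percentiles 20.5 to 44.1, all above the gene, the highest at chr18:65721126-65721672. The 2 NPC-only peaks were at percentiles 4.02 and 21.2, the higher at chr18:65857225-65857702. Each of these was below its list median.

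**Figure D3:**
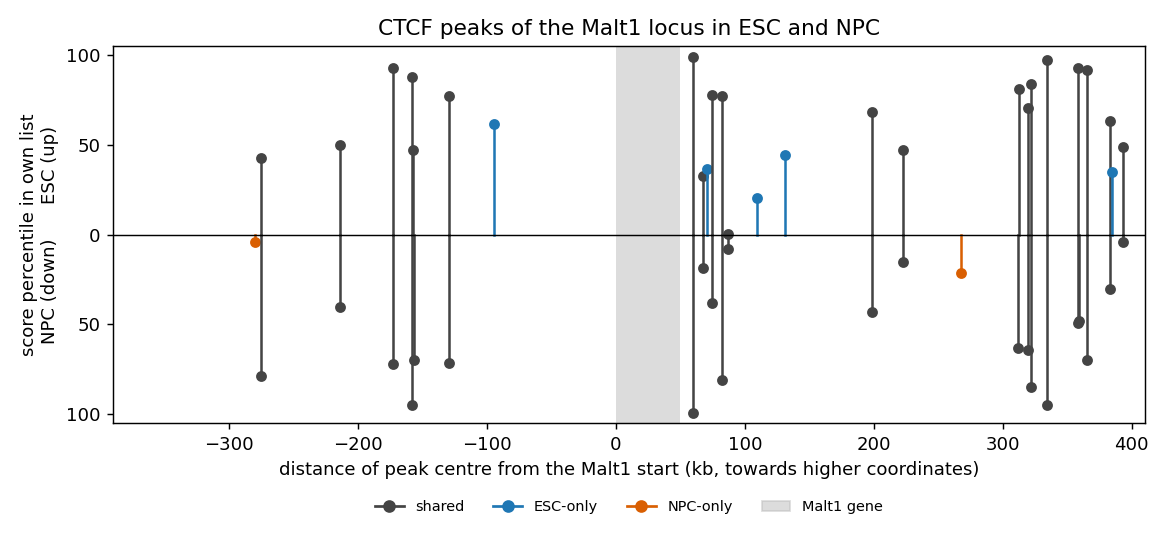
Score percentile of each CTCF peak of the Malt1 locus within its own list, ESC upwards and NPC downwards, against the distance in kb of its centre from the lower end of Malt1 (grey band, the gene as the rule places it). Most peaks have a partner opposite, the band holds none, and the tallest pair, at 98.6 and 99.4, stands just right of the band.

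The Fbn2 locus had the fewest ESC peaks and shared nearly all of them. There were 8 ESC and 13 NPC peaks, with 7 shared sites, 1 ESC-only peak and 6 NPC-only peaks, all of the last below the NPC list median. Slc12a2, a cotransporter gene, is the nearest protein-coding gene on the lower-coordinate side in RefSeq, and Slc27a6 on the other. Fbn2 is transcribed towards lower coordinates, so its start is at the higher end of its span.

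Of the 3 sites inside Fbn2, 1 was shared. It lay near the 3′ end of the gene, with an ESC peak at chr18:58192773-58193423 (score 1092, percentile 77.4) and an NPC peak at chr18:58192870-58193384 (score 802, percentile 73.0). It ranked among the top 3 of the locus in both lists and differed by -4.43 points. From there the ESC list was empty for 448 kb between centres, over the rest of Fbn2 and its start, a distance reached by 1.10% of all ESC gaps.

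Inside that ESC gap the NPC list had 5 peaks. They included 2 within the gene close to its start, at chr18:58366507-58366920 (score 235, percentile 33.7) and chr18:58368634-58368979 (percentile 13.8), and another about 0.9 kb beyond the higher end, at chr18:58370674-58371037 (percentile 12.8). The next lay at chr18:58385662-58386073, about 15.9 kb beyond, at percentile 15.5, and the last about 227.5 kb beyond, at 8.04. For the first 4 the nearest ESC peak was between 173084 and 192239 bp away. All 5 were below the NPC list median, where 37.7% of peaks were unshared, so that their rank is that of peaks often found in 1 list only.

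Beyond the 3′ end of Fbn2, on the lower-coordinate side, 4 of the 5 sites were shared, and the fifth was the single ESC-only peak of the window, at chr18:58070840-58071308 and percentile 20.0. The closest in both lists was a weak site at chr18:58137898-58138348, about 29.9 kb from the gene, at percentile 18.6 in ESC and 17.6 in NPC. Next to it, at chr18:58136159-58136753, was the highest NPC site of the locus, at percentile 66.6 in ESC and 78.3 in NPC. The site at chr18:58125016-58125613 was at 60.6 and 70.1. The weak site at chr18:58100380-58100736 had the largest difference upwards, from 11.2 in ESC to 37.6 in NPC, and was the only Fbn2 pair at least 25 points higher in NPC, as 11.9% of all pairs were.

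Upstream of Fbn2 there were 2 shared sites. The ESC peak at chr18:58669156-58669808, about 299.5 kb from the gene, was the highest of the locus at percentile 80.9, and its NPC peak was at 62.9, the largest drop of the locus at -18.0 points. The nearer site at chr18:58641299-58641875, about 271.6 kb away, was at 50.1 and 44.5. Between them lay the highest NPC-only peak of the locus, chr18:58652336-58652781, at percentile 45.1.

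Over the 7 Fbn2 pairs there was no common direction. In NPC 4 ranked lower and 3 higher (57.1% lower, interval 18.4 to 90.1, against 52.9% of all pairs), and none was 25 points lower, where 16.4% of all pairs were. The median difference was -1.08 points, within a range of -18.0 to 26.4. The sign of that median turned when percentiles were taken within the chromosome (1.32) or among paired peaks only (1.60), or when the window was widened by 100 kb on each side (4.25).

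**Figure D4:**
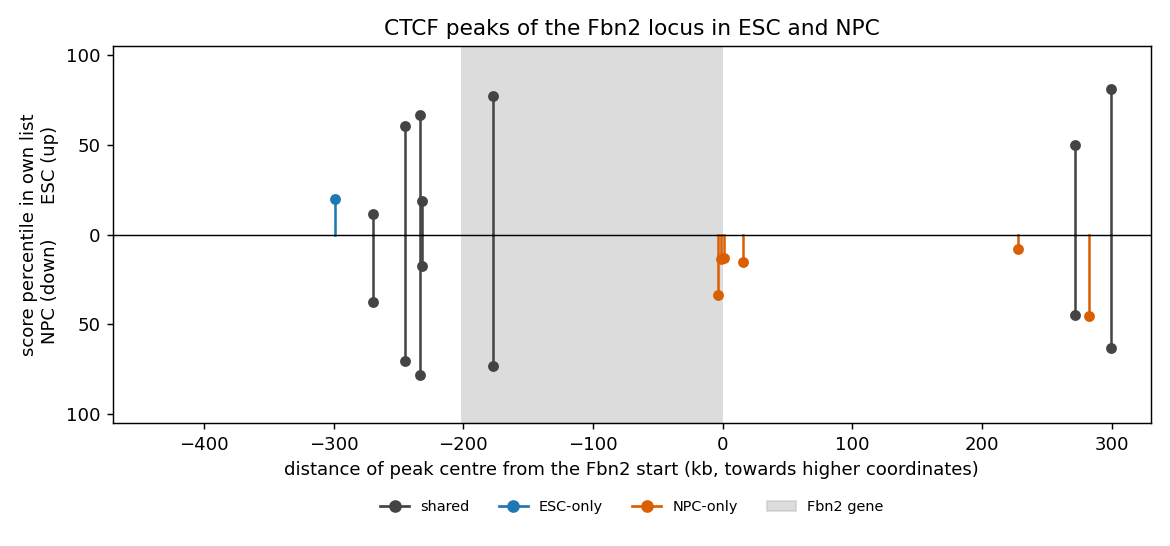
Score percentile of each CTCF peak of the Fbn2 locus within its own list, ESC upwards and NPC downwards, against the distance in kb of its centre from the Fbn2 start (the right edge of the grey band, which is the gene as the rule places it). NPC-only peaks at percentiles 12.8 to 33.7 gather at the right edge of the band, where the ESC side is empty. Shared peaks stand left of the band, inside it and towards the right end of the window.

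Set side by side, the paired sites of the 3 loci differed most in their NPC ranks. The median ESC percentile of the paired sites was 67.3 at Sox2, 73.9 at Malt1 and 60.6 at Fbn2, and the median NPC percentile was 36.5, 66.9 and 62.9. Over all pairs these medians were 61.8 and 59.4. Centres of the paired peaks were a median of 19.5 bp apart at Sox2, 55.5 bp at Malt1 and 28.5 bp at Fbn2, against 32 bp over all pairs. The ESC peak was the wider in all 4 Sox2 pairs, all 20 Malt1 pairs and 6 of 7 Fbn2 pairs, as in 87.4% of all pairs.

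**Figure D5:**
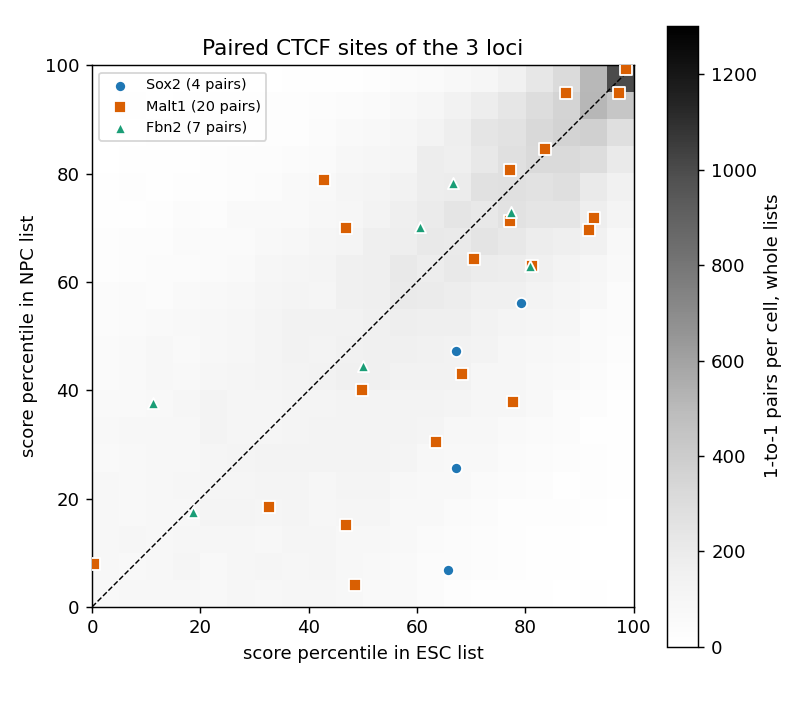
Score percentile in the NPC list against that in the ESC list for each 1-to-1 paired site of the Sox2 (circles), Malt1 (squares) and Fbn2 (triangles) loci, over the number of all pairs per cell (grey); the dashed line marks equal percentiles. The 4 Sox2 sites all lie below the line, by 19.9 to 58.8 points, while Malt1 and Fbn2 sites lie on both sides.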

How the data were processed

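CTCF ChIP-seq libraries of E14 ESC and E14 NPC (1 each) were sequenced on SOLiD, per the labels' protocols. The authors deposited 1 peak list per library, called with MACS per the file headers, with a score per peak whose definition is not stated. The build is mm9 according to the submitters' processing notes. The aligner, control, MACS version and calling threshold were not given in the sources used here. Starts were made 1-based. Percentiles are mid-ranks over the whole list. The windows, and gene positions on mm9, were given with the choice of loci; gene order comes from RefSeq (GRCm38.p6), whose coordinates were not used. The loci and sites were chosen with earlier results of these data known. Sites named are, per window, those nearest to or inside the gene, the 3 highest per list, peaks of 1 list only (by position where above the list median, otherwise the highest) and the largest differences; further sites were named after their values were seen. Overlap was tested on simulated data. Alternatives changed the overlap rule, score limit, window and percentile reference. Sequencing depth is unknown. Python 3.11.15, numpy 2.4.6, pandas 2.3.3, scipy 1.17.1 and matplotlib 3.10.9 were used.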

Additional observations from a re-analysis of the deposited data

How the results depend on the processing

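Of 93 values recomputed under the alternatives, 77 stayed within the interval of the main value or, for counts, within 1.5 times of it. Percentile differences also had to keep their sign to be among these. This tally does not measure robustness, because the intervals were wide. The Sox2 ESC share counted as unchanged at 14.3% (upper 50% of both lists) and at 40.0% (peaks within 1 kb). NPC peak counts could not change where only the ESC list was shortened. The 93 also include 18 alternatives for the median percentile of a locus, which is not given above. Restricted to the upper 50% of scores, the loci held 7 ESC peaks and 1 NPC peak at Sox2, 15 and 12 at Malt1, and 5 and 4 at Fbn2. Against the whole other list, the shared part of those peaks was 57.1% (4 of 7) at Sox2 in ESC and 100% at Fbn2 in ESC and at all 3 loci in NPC; the upper 50% of both lists against each other gave 100% at Sox2 and Fbn2 in NPC. Fewer peaks enter these settings by construction. Over the whole lists, 4.94% of the 27049 ESC peaks at percentile 50.1 and above had no peak in the full NPC list. Of the 26098 NPC peaks at percentile 49.2 and above, 5.22% had none in the full ESC list. The median percentile difference at Fbn2 reversed to 1.32 within the chromosome, 1.60 among paired peaks only and 4.25 with windows widened by 100 kb; the cause was not tested. No paired analysis was possible because each cell type has 1 library, so no library could be left out either.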
